A study of Mus musculus with 6 samples.

Results

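The genes described here are 35 genes of glycolysis and of the transcriptional response to low oxygen, chosen by name: glucose and lactate transporters, the glycolytic enzymes and 2 of their regulators, the oxygen-sensing factors and a set of hypoxia targets. Of the 35, 33 were listed under that name among the 22487 genes of the deposited table, and all 33 were among the 15303 genes tested, which had a mean of at least 0.5 FPKM (fragments scaled by gene length and library total). Gapdh was not analysed here. Ca9 is not matched by its name, and the gene listed as Car9, the rat symbol for carbonic anhydrase 9, is given with the other hypoxia targets.

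RNA sequencing was done on ovarian tissue of adult female wild-type rats, 3 libraries from untreated controls and 3 from animals exposed to cowshed PM2.5 (fine airborne particulate matter). All titles carry 30 days, and the labels give no dose, no route and no word on whether each library is 1 animal, so the p-values cover only how far these libraries vary, which may be technical. The organism field names the mouse, while all 22487 gene identifiers are rat identifiers. Total counts ran from 47662338 to 60749578 per library, and markers of granulosa cells, luteal cells, theca, endothelium and oocytes were present in all 6 libraries. In such bulk tissue, fewer cells of a type and less RNA per cell cannot be told apart.

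Glycolysis breaks glucose down to pyruvate, and lactate dehydrogenase turns pyruvate into lactate that leaves the cell through monocarboxylate transporters. When oxygen is short, the prolyl hydroxylases of the Egln family stop marking the HIF alpha subunits for destruction, and HIF then raises transcription of many glycolytic enzymes, of the glucose transporter Slc2a1 and of its own brake Egln3. In the ovary the avascular granulosa layer is known for glycolysis and lactate output, which feeds the oocyte, and the growing corpus luteum is known for HIF-driven vessel growth.

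Eno2 and P4ha1 fell in the PM2.5 libraries. Eno2 encodes gamma enolase, an isoenzyme best known from neurons and endocrine cells, and P4ha1 encodes a catalytic subunit of collagen prolyl 4-hydroxylase, which hydroxylates procollagen in the endoplasmic reticulum and is a HIF target. These were the 2 of 33 members (6.06%) with an adjusted p below 0.05, against 0.928% of all genes tested. The members were chosen with earlier results of these data known, so this share and those below are no independent comparison. Of the 33 members, 22 had a log2 fold change within 0.5 of zero, 66.7%, against 64.9% of all genes, and 25 were within 1 of zero, where 86.8% of all genes were.

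In controls 1 to 3, Eno2 stood at 65.3, 65.1 and 58.8 CPM (library-scaled counts, with TMM factors). In PM2.5 libraries 1 to 3 it had 21.3, 16.8 and 10.7 CPM, so every exposed library lay below every control by a wide margin. The means were 63.1 ± 3.71 and 16.3 ± 5.32 CPM (SD, n = 3 in each group), a log2 fold change of -1.95 ± 0.26 (SE) and it passed at 0.0434 (p after Benjamini-Hochberg adjustment, edgeR quasi-likelihood). The gene lies on chromosome 4 from 157572088 to 157580980, minus strand, by the positions the authors list. The labels name no build for them.

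The control values of P4ha1 were 118, 148 and 123 CPM, and the exposed ones 58.9, 53.1 and 65.7 CPM. The groups were again apart, and the spread within each was small beside the gap between them. Its log2 fold change was -1.13 ± 0.15 (edgeR quasi-likelihood adjusted p = 0.0434), from a mean of 129.6 ± 15.8 to 59.2 ± 6.32 CPM. P4ha1 lies on chromosome 20 from 27302141 to 27352786, plus strand. Both calls were lost without the filter on low values (edgeR adjusted p = 0.0505 for each) and when any single library was left out: the adjusted p then ran from 0.0706 to 0.230 for Eno2 and from 0.0706 to 0.231 for P4ha1, with log2 fold changes from -2.19 to -1.73 and from -1.21 to -1.02.

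**Figure D1:**
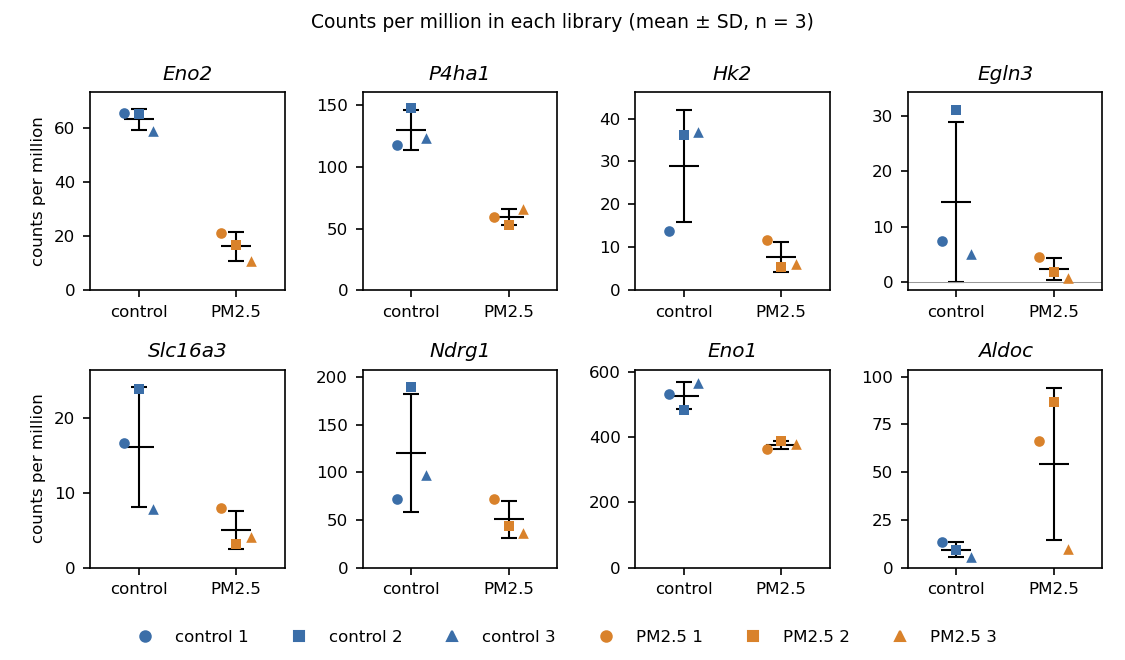
CPM in each library for Eno2, P4ha1, Hk2, Egln3, Slc16a3, Ndrg1, Eno1 and Aldoc; blue symbols are controls, orange symbols PM2.5 libraries, shapes give the library number, and black bars give mean ± SD (n = 3). Eno2 lies at 58.8 CPM or more in controls and at 21.3 CPM or less in PM2.5, while Aldoc is high in PM2.5 libraries 1 and 2 and not in library 3.

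Without adjustment, 9 of the 33 members (27.3%) had a p below 0.05, where 20.9% of all genes did, 8 of them lower (24.2%, against 11.7% of all genes) and 1 higher (9.17% of all genes). The groups did not overlap in 7 members (21.2%), where 27.2% of all genes were apart, and in all 7 the PM2.5 libraries were the lower ones (15.2% of all genes). The median log2 fold change of the 33 members was -0.13, with 19 below zero (57.6%, against 49.6% of all genes), and the median over all genes tested was 0.0041. Without control 2 the members' median was -0.016.

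**Figure D2:**
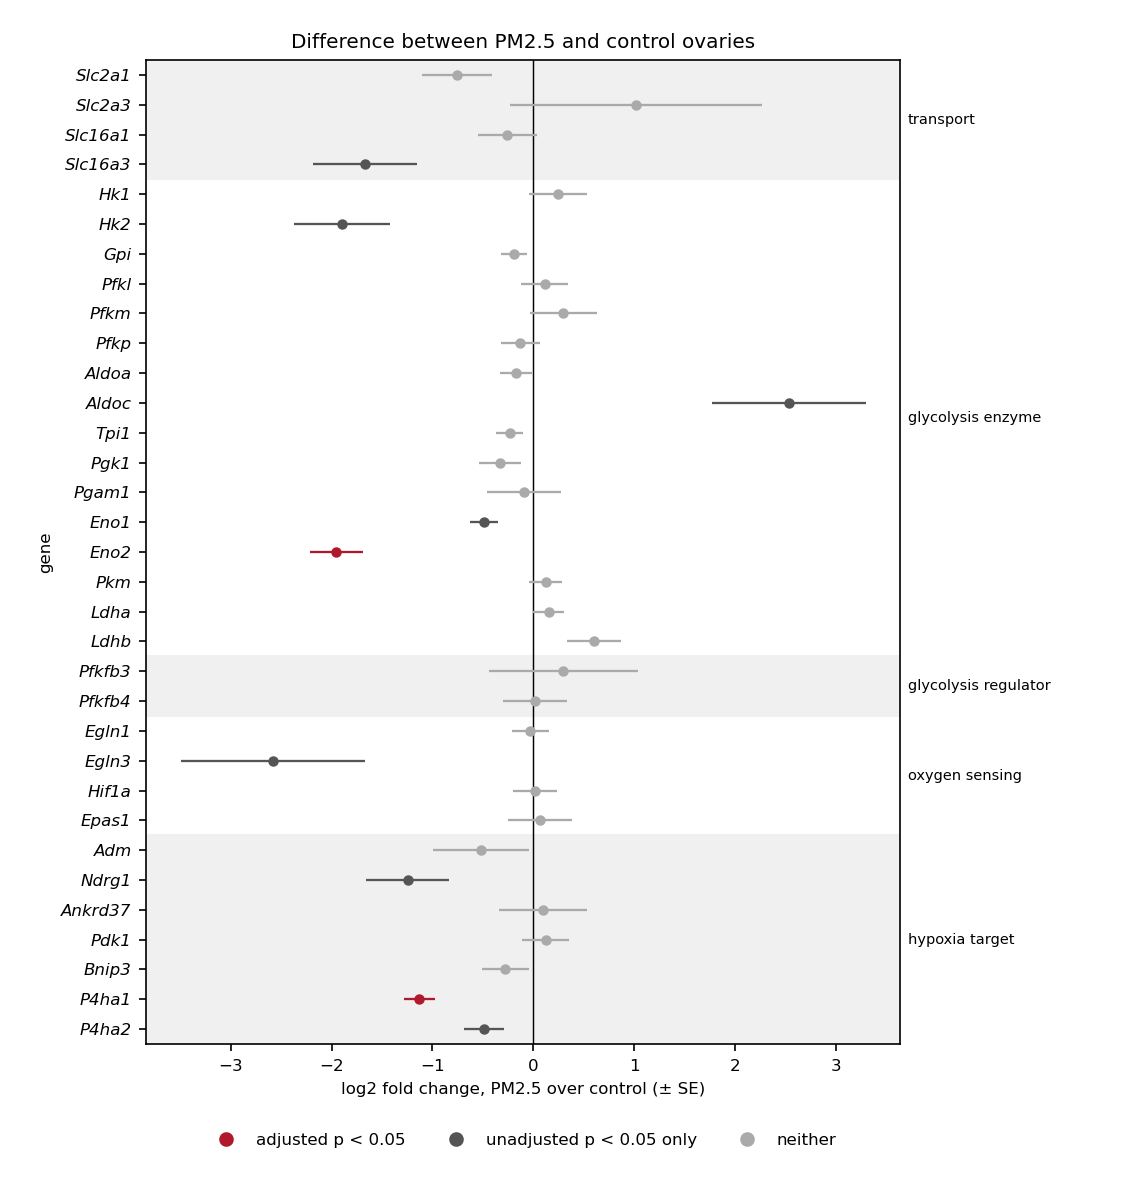
Log2 fold change of PM2.5 over control (x axis, ± SE) for the 33 members, grouped by role; red marks an adjusted p below 0.05, dark grey an unadjusted p below 0.05 only, light grey neither. Eno2 at -1.95 and P4ha1 at -1.13 are the red points, and the glycolytic enzymes other than Hk2, Aldoc and Eno2 lie between -0.49 and 0.60.

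The transporters stood at very different levels. Per length, the main glucose transporter Slc2a1 (GLUT1) had a mean of 29.6 FPKM in controls and 17.4 FPKM in PM2.5, and the high-affinity transporter Slc2a3 (GLUT3) had 2.42 and 4.79 FPKM. The lactate carrier Slc16a1 (MCT1) had 25.4 and 21.1 FPKM, against 1.75 and 0.544 FPKM for Slc16a3 (MCT4), the exporter of highly glycolytic cells.

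Slc16a3 had 16.7, 23.8 and 7.86 CPM in controls and 7.92, 3.21 and 4.03 CPM under PM2.5, so control 3 and PM2.5 library 1 met at the same level. Its log2 fold change of -1.67 ± 0.52 had an unadjusted p of 0.0143 and missed the threshold over all genes (edgeR adjusted p = 0.148). Slc2a1 had 69.8, 138 and 51.7 CPM in controls and 53.9, 47.5 and 52.8 CPM in PM2.5. Control 2 was far above the other 5 libraries, control 1 was next, and control 3 lay within the range of the exposed libraries. The log2 fold change of Slc2a1 was -0.75 ± 0.35, and -0.24 without control 2.

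Slc2a3 had 25.8 CPM in control 2 and 52.7 CPM in PM2.5 library 1, and between 2.56 and 6.54 CPM in the other 4 libraries. One library of each group thus carried most of its message, and its log2 fold change of 1.02 ± 1.25 became -0.98 without PM2.5 library 1 and 2.99 without control 2. Slc16a1 had 81.6, 137 and 58.7 CPM in controls and between 75.6 and 78.7 CPM in PM2.5, a log2 fold change of -0.26 ± 0.29. As with Slc2a1, control 2 was the high library, and without it the value was 0.14.

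Hexokinase traps glucose in the cell as glucose-6-phosphate. Hk1, the form found in most tissues, had 126, 117 and 157 CPM in controls and 228, 136 and 109 CPM in PM2.5 (log2 fold change 0.25 ± 0.29). Hk2, the insulin- and HIF-responsive form, had 13.8, 36.2 and 36.8 CPM in controls and 11.8, 5.47 and 6.04 CPM in PM2.5. The groups of Hk2 were apart, though control 1 and PM2.5 library 1 lay only a little from each other. Its log2 fold change of -1.89 ± 0.47 had an unadjusted p of 0.00535 and missed the threshold over all genes (edgeR adjusted p = 0.112).

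Gpi, the isomerase that makes fructose-6-phosphate, had a log2 fold change of -0.19 ± 0.13, with 323 to 352 CPM in controls and 288 to 306 CPM in PM2.5. Tpi1, which interconverts the triose phosphates, had -0.23 ± 0.13, with 308 to 325 CPM and 254 to 293 CPM. Both pairs of groups were apart by narrow margins and neither passed (edgeR adjusted p of 0.426 and 0.364). The 3 phosphofructokinase subunits, which catalyse the committed step, overlapped between groups, with log2 fold changes of 0.11 ± 0.23 for Pfkl, 0.30 ± 0.33 for Pfkm and -0.13 ± 0.19 for Pfkp.

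Pfkfb3 and Pfkfb4 make fructose-2,6-bisphosphate, the main activator of phosphofructokinase. Pfkfb3 had 85.8 CPM in PM2.5 library 1, against 12.1 to 42.5 CPM in the other 5 libraries, and a log2 fold change of 0.30 ± 0.74 that became -0.93 without that library. Pfkfb4 ranged from 8.58 to 18.1 CPM with a log2 fold change of 0.015 ± 0.32. PM2.5 library 1 was the highest of the 6 for 7 members, among them Hk1, Pfkl, Pfkfb3, Pfkfb4 and Pgam1.

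Aldoc, the aldolase isoenzyme best known from brain, was the member with the largest positive value. It had 13.5, 9.31 and 5.33 CPM in controls and 66.6, 86.9 and 9.73 CPM in PM2.5. PM2.5 library 3 lay within the control range, so the groups overlapped. Its log2 fold change of 2.54 ± 0.76 had an unadjusted p of 0.013 and missed the threshold over all genes (edgeR adjusted p = 0.144). Leaving out PM2.5 library 3 gave 3.03, and leaving out library 2 gave 2.03.

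Adipoq, the adipocyte hormone adiponectin, was also high in PM2.5 libraries 1 and 2, with 33.3 and 33.8 CPM there and between 0.929 and 2.60 CPM in the other 4 libraries. The summed level of the 7 adipocyte markers ran from 19.7 to 32.4 CPM in controls and from 42.9 to 90.3 CPM in PM2.5, where library 3 was the lowest and still above every control, and 4 of the 5 tested markers were higher without passing. In PM2.5 libraries 1 to 3, Cfd had 17.9, 28.3 and 24.8 CPM and Fabp4 had 11.9, 21.2 and 12.2 CPM. Library 3 was thus the lowest exposed library for neither of these adipocyte markers, unlike for Adipoq. None of the 7 was at 0 in every library, and Plin1, the lipid droplet coat protein, did not exceed 1.88 CPM in any. Acta1, from the skeletal muscle markers, had 13.2, 17.5 and 1.15 CPM in PM2.5 libraries 1 to 3. In controls 1 to 3 it had 7.65, 2.33 and 0.666 CPM. Myl1, from the same markers, was at 0.329 CPM or less in every PM2.5 library. The part of fat or muscle in the level of Aldoc was not tested. Aldoa, the aldolase of muscle and most other tissues, had 701 to 886 CPM in controls and 669.6 to 744 CPM in PM2.5, a log2 fold change of -0.17 ± 0.16.

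Below the triose phosphates, Pgk1, the kinase of the first ATP-yielding step, had a log2 fold change of -0.33 ± 0.20, which was -0.13 without control 3. Pgam1, the phosphoglycerate mutase, had 875 CPM in PM2.5 library 1 and 344 CPM in PM2.5 library 3, with controls at 506, 531 and 738 CPM between them (-0.09 ± 0.36). Eno1, the common enolase, had 532, 483 and 565 CPM in controls and 364, 387 and 377 CPM in PM2.5. The 2 groups of Eno1 were apart and each was tight, and its log2 fold change of -0.49 ± 0.14 had an unadjusted p of 0.0108 without passing over all genes (edgeR adjusted p = 0.137). Both enolases lay lower in all 3 exposed libraries than in the controls, Eno2 with the larger difference. Eno3, the muscle enolase and no member, is named after its values were seen. It had 27.0 to 34.6 CPM in controls and 22.1 to 31.2 CPM in PM2.5, with overlapping groups (-0.17 ± 0.20).

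Pkm, the pyruvate kinase outside liver and red cells, had a log2 fold change of 0.12 ± 0.16, and Ldha, the pyruvate-reducing lactate dehydrogenase subunit, had 0.15 ± 0.15. Ldhb, the subunit of oxidative tissues, had 223, 254 and 144 CPM in controls and 234, 329 and 379 CPM in PM2.5. Control 2 lay above PM2.5 library 1, so the groups overlapped, and the value of 0.60 ± 0.27 did not pass (unadjusted p = 0.0616). Summed over the 16 measured glycolytic enzymes, the level was 4770, 4612 and 4760 CPM in controls and 4929, 4418 and 4146 CPM in PM2.5, with the first exposed library above all controls and the other 2 below them.

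Several of these enzymes, among them Pgk1, Pgam1, Ldha, Eno1 and Tpi1, have processed copies elsewhere in rodent genomes, so reads may have been shared out among copies and these values are uncertain. Per length, Aldoa was the most abundant member in controls with 425 FPKM, followed by Pgam1 with 306, Eno1 with 203 and Tpi1 with 179.8 FPKM. In PM2.5 the order was Aldoa at 379.8, Pgam1 at 289, Ldhb at 199 and Ldha at 159 FPKM. Ldhb had a control mean of 132 ± 40.5 FPKM, which did not differ from those of Gpi, Pgk1 and Pkm by more than its SD.

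**Figure D3:**
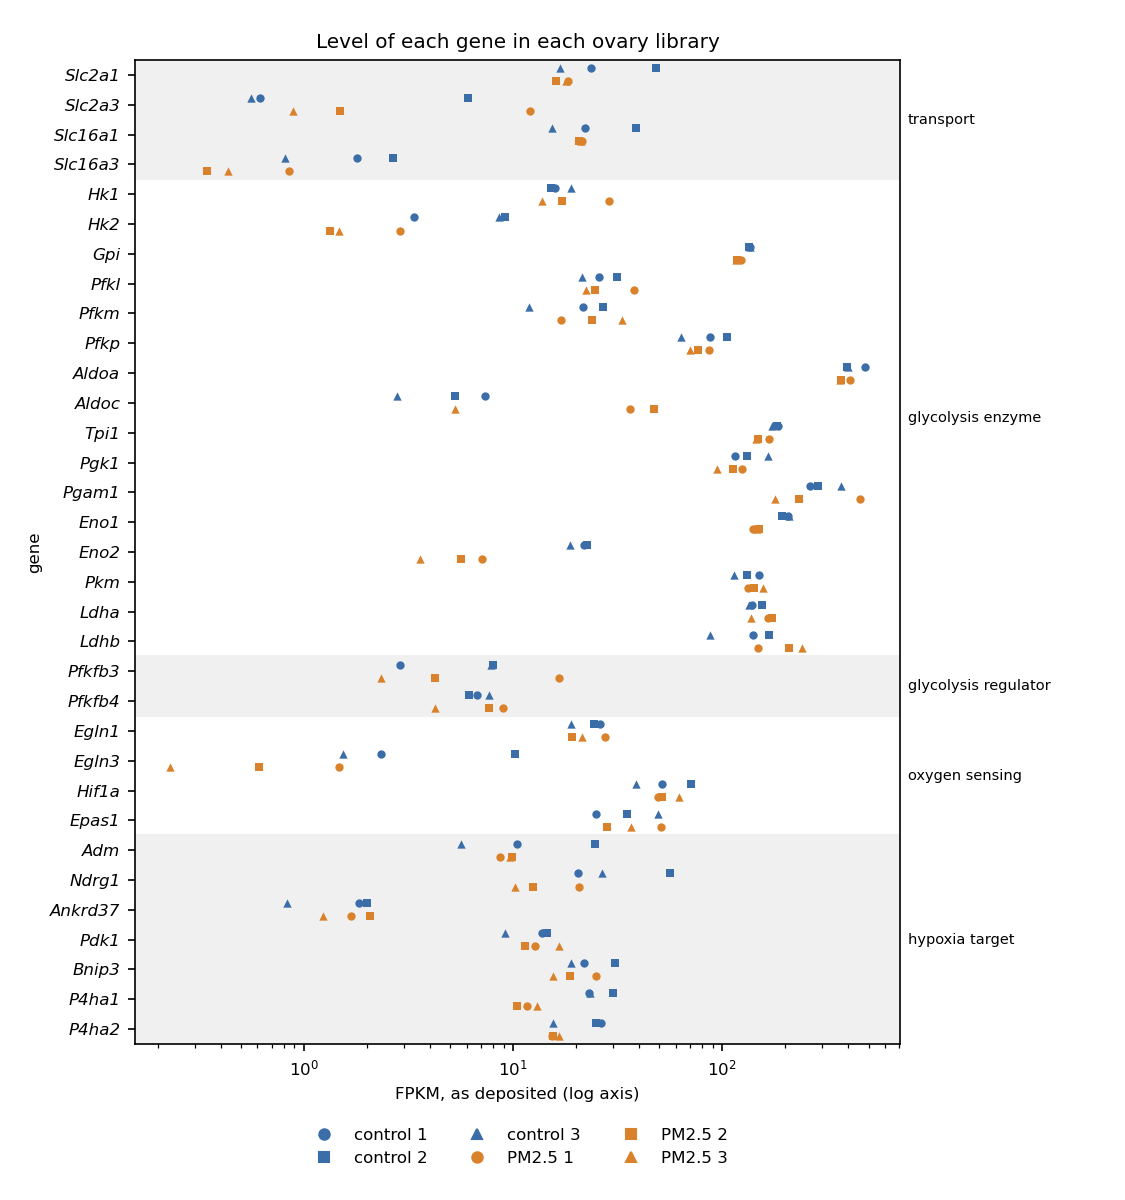
Deposited FPKM of the 33 members in each library on a log axis, grouped by role; blue symbols are controls, orange symbols PM2.5 libraries, and shapes give the library number. Aldoa and Pgam1 lie to the right, Egln3, Slc2a3, Slc16a3 and Ankrd37 to the left, and Slc2a3, Aldoc, Pfkfb3 and Egln3 have wide spreads within a group.

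Of the oxygen-sensing factors, Hif1a, Epas1 and Egln1 had log2 fold changes close to zero. Hif1a, the subunit stabilised in acute hypoxia, had 167 to 282 CPM in controls and 203 to 255 CPM in PM2.5 (log2 fold change 0.020 ± 0.22), and Epas1, which encodes HIF-2 alpha, had 128 to 265 CPM and 145 to 260.4 CPM (0.068 ± 0.32). HIF activity is set mostly by protein stability, which RNA does not report. Egln1, the main HIF prolyl hydroxylase in normal oxygen, had 53.5 to 70.9 CPM in controls and 52.2 to 74.5 CPM in PM2.5 (-0.03 ± 0.18).

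Egln3, the hydroxylase that HIF induces as feedback, had 7.38, 31.1 and 5.05 CPM in controls and 4.62, 1.91 and 0.725 CPM in PM2.5. The groups were apart, but by a small step between control 3 and PM2.5 library 1, and control 2 stood far above the rest. Its log2 fold change of -2.58 ± 0.92 had an unadjusted p of 0.0261 and did not pass (edgeR adjusted p = 0.184). Without control 2 it was -1.36.

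Ndrg1, a stress-induced gene strongly raised by HIF, had 71.9, 189.8 and 97.6 CPM in controls and 72.0, 43.6 and 35.8 CPM in PM2.5. Control 1 and PM2.5 library 1 were at one level, and control 2 was again the highest. The log2 fold change was -1.25 ± 0.42 (unadjusted p = 0.0203, edgeR adjusted p = 0.168), and -0.75 without control 2. P4ha2, the second catalytic subunit of collagen prolyl 4-hydroxylase, had 74.6, 67.8 and 45.6 CPM in controls and 43.4, 43.9 and 46.6 CPM in PM2.5. Control 3 sat at the level of the exposed libraries, and the value of -0.49 ± 0.20 did not pass (unadjusted p = 0.0435, edgeR adjusted p = 0.228).

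The remaining targets overlapped between groups. Adm, the vasodilator adrenomedullin, had 16.5, 37.4 and 9.21 CPM in controls and 13.5 to 15.5 CPM in PM2.5, with a log2 fold change of -0.51 ± 0.48 that was 0.20 without control 2. Bnip3, a receptor for mitochondrial autophagy, had -0.28 ± 0.23, Pdk1, the kinase that switches off pyruvate dehydrogenase, had 0.12 ± 0.23, and Ankrd37, a small ankyrin-repeat protein, had 0.098 ± 0.44. Control 2 was the highest library for 4 of the 7 measured hypoxia targets, for Egln3, Hif1a, Slc2a1, Slc16a1 and Slc16a3, and for 10 of the 33 members in all, and it was the lowest for none. The lowest library was PM2.5 library 3 for 13 members and control 3 for 12.

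Related genes were also set against each other within each library, as the log2 ratio of their FPKM values, which does not depend on library size. Of 12 pairs, 5 had groups that did not overlap: Hk2/Hk1, Eno2/Eno1, Slc16a3/Slc16a1, Egln3/Egln1 and P4ha2/P4ha1. Among single genes 27.2% of all were apart, and no such share was computed for pairs of other genes. Hk2, Eno1, Eno2, Egln3 and P4ha1 were already apart by themselves, so the ratios that hold them largely restate those values. With 3 against 3 libraries the exact two-sided permutation test cannot go below p = 0.1, which each of the 5 reached (0.24 after Benjamini-Hochberg adjustment over the 12), so none passed. Eno2 was present at 0.106, 0.116 and 0.0897 times the level of Eno1 in controls and at 0.0504, 0.0374 and 0.0244 times in PM2.5. The ratio was thus lower in each exposed library although Eno1 was lower too, and its log2 difference was -1.53.

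Hk2 stood at 0.212, 0.599 and 0.453 times Hk1 in controls and at 0.1002, 0.0775 and 0.107 times in PM2.5, a log2 difference of -2.04. Slc16a3 stood at 0.0530 to 0.0809 times Slc16a1 in controls and at 0.0168 to 0.0398 times in PM2.5, a difference of -1.48. Here the groups were apart although those of Slc16a3 alone were not. P4ha2 stood at 0.664 to 1.14 times P4ha1 in controls and at 1.27 to 1.49 times in PM2.5, so P4ha2 was the more abundant subunit message per length in all 3 exposed libraries and in 1 of 3 controls. Ldha/Ldhb (-0.47, exact permutation p = 0.4), Pfkl/Pfkm (-0.23), Pfkp/Pfkm (-0.42), Pfkfb4/Pfkfb3 (0.0071), Epas1/Hif1a (0.045), Aldoc/Aldoa (2.30) and Slc2a3/Slc2a1 (1.60) overlapped between groups. Without PM2.5 library 1, 8 of the 12 pairs were apart, a count that leaving out a library can keep or raise but never lower.

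**Figure D4:**
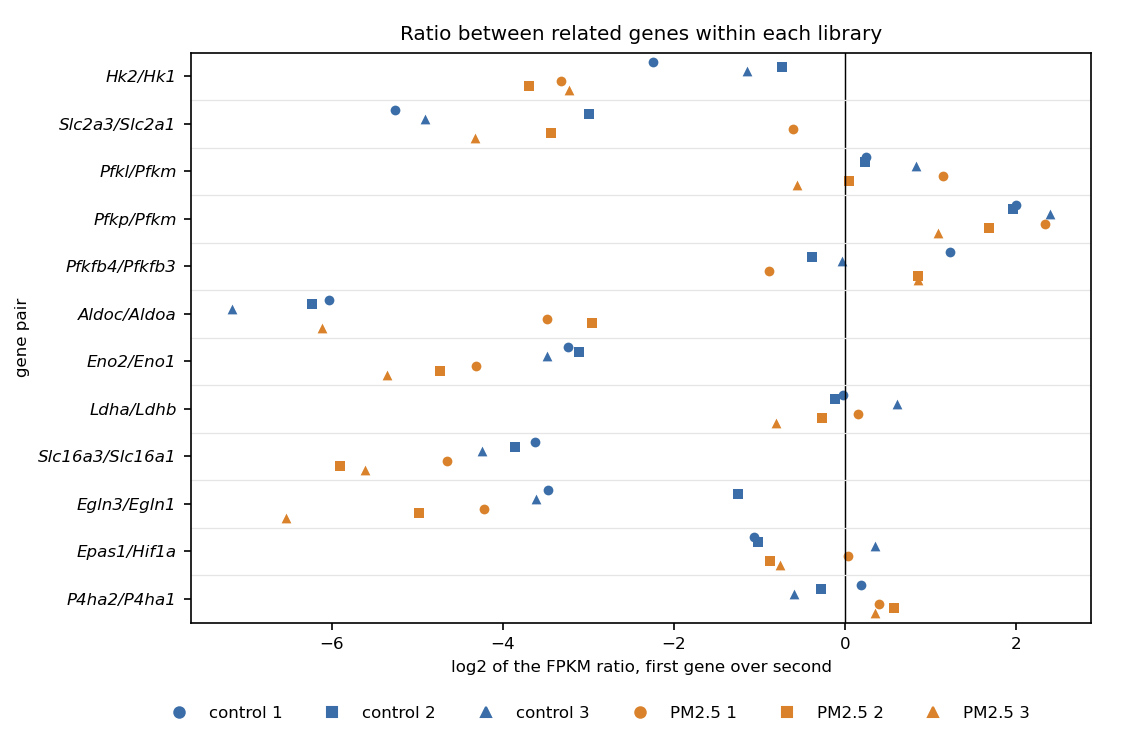
Log2 of the FPKM ratio between 2 related genes within each library (x axis) for 12 pairs; blue symbols are controls, orange symbols PM2.5 libraries, and shapes give the library number. Groups are apart for Hk2/Hk1, Eno2/Eno1, Slc16a3/Slc16a1, Egln3/Egln1 and P4ha2/P4ha1, and PM2.5 library 1 lies at -0.60 for Slc2a3/Slc2a1, above all other libraries.

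Beyond the members, 46 other hypoxia targets were listed by name and all were tested. This list too was drawn up with earlier results of these data known, so its shares are no independent comparison. Of these 3 fell and none rose over all genes (6.52%, against 0.928% of all genes), while 8 lower and 8 higher had an unadjusted p below 0.05, 34.8% against 20.9% of all genes. The list's median was -0.22, with 28 of 46 below zero. Hilpda, which coats lipid droplets in hypoxic cells, had 105, 117 and 180.0 CPM in controls and 46.4, 40.3 and 36.4 CPM in PM2.5. The lowest control lay well above the highest exposed library. The log2 fold change was -1.71 ± 0.23 (edgeR adjusted p = 0.0434).

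Bhlhe40, a repressor of the clock and of lipid genes, fell by 1.84 ± 0.26 on the log2 scale, and Hmox1, which degrades heme, fell by 1.18 ± 0.15 (edgeR adjusted p = 0.0434 for each). As for Eno2 and P4ha1, none of the 3 passed with a library left out. Cxcr4, a chemokine receptor that HIF induces, had 48.7, 38.5 and 84.3 CPM in controls and 14.8, 9.64 and 6.69 CPM in PM2.5, and its -2.46 ± 0.40 just missed the threshold (edgeR adjusted p = 0.0515). Stc1, Vegfa and Car9 are named after their values were seen.

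Stc1, the secreted glycoprotein stanniocalcin, was higher in each exposed library, with 5.25, 8.64 and 4.20 CPM in controls and 41.9, 18.5 and 20.6 CPM in PM2.5 (2.16 ± 0.43, edgeR adjusted p = 0.0724). Over the whole list of 46, groups were apart in 11 lower genes (23.9%) and 7 higher genes. Among all genes, 15.2% and 12.1% were apart in those directions. Vegfa, the endothelial growth factor, had 708, 493 and 848 CPM in controls and 636, 343 and 193 CPM in PM2.5 (-0.81 ± 0.43). Car9 had 1.03 to 2.47 CPM in controls and 1.41 to 1.71 CPM in PM2.5 (-0.013 ± 0.47).

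In the other lists of the pathway no gene passed over all genes. Of 15 tested glycolytic isoenzymes outside the members, 3 had an unadjusted p below 0.05 (20%, against 20.9% of all genes): Hk3, the hexokinase of myeloid cells (-1.35 ± 0.44), Gapdhs, the sperm form of glyceraldehyde phosphate dehydrogenase (-1.42 ± 0.50), and Ldhc, the testis form of lactate dehydrogenase (1.66 ± 0.68). All 3 were scarce, at 6.62 CPM or less in every library. Galm, which interconverts the anomers of hexoses, had 0.96 ± 0.41, and 0.43 without PM2.5 library 1. The median of the list was -0.15.

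Among 13 other transporters and their partners, 10 were above zero and 3 below (23.1%, against 49.6% of all genes), with a median of 0.38. Of the 13, 2 had an unadjusted p below 0.05 (15.4%, against 20.9% of all genes). Groups were apart in 3 (23.1%, against 27.2% of all genes). Emb, a chaperone of monocarboxylate transporters, had 20.3, 19.8 and 12.8 CPM in controls and 64.4, 66.3 and 20.2 CPM in PM2.5 (1.51 ± 0.46, edgeR adjusted p = 0.144). It was high in the same 2 exposed libraries as Aldoc and Adipoq. Slc16a6, a member of the monocarboxylate transporter family, had 23.5, 24.5 and 36.8 CPM in controls and 18.6, 12.8 and 8.74 CPM in PM2.5 (-1.08 ± 0.33, edgeR adjusted p = 0.147). Slc16a7, a pyruvate carrier, had 0.90 ± 0.41 and Slc2a8, an intracellular glucose transporter, 0.40 ± 0.20.

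The 19 genes of pyruvate entry and gluconeogenesis had a median of 0.10. Of these, 1 had an unadjusted p below 0.05 (5.26%, against 20.9% of all genes): Fbp2, a fructose bisphosphatase (1.29 ± 0.53). Mpc2, a subunit of the mitochondrial pyruvate carrier, had 0.51 ± 0.25, Pdk2, a pyruvate dehydrogenase kinase, 0.51 ± 0.25, and G6pc3, a glucose-6-phosphatase, -0.30 ± 0.15. The 14 tested genes of the oxygen-sensing machinery had a median of -0.026, all within 1 of zero. Of these, 3 had an unadjusted p below 0.05 (21.4%, against 20.9% of all genes). Groups were apart in 3 (21.4%, against 27.2% of all genes). Cul2 and Eloc, parts of the ligase that destroys hydroxylated HIF, had 0.49 ± 0.15 and 0.37 ± 0.14, with groups apart and unadjusted p of 0.0149 and 0.0322. Rbx1, the RING subunit of the same ligase, had 0.37 ± 0.20, also with groups apart. Vhl and Elob, further parts of it, are named after their values were seen. They had -0.0099 ± 0.22 and -0.049 ± 0.22, with overlapping groups. Siah2, which targets Egln proteins for degradation, had -0.87 ± 0.31 (unadjusted p = 0.027). None of these passed over all genes, where the edgeR adjusted p was 0.150 or more.

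Markers of some other cell types also differed between the groups. The summed erythroid markers ran from 785 to 1043 CPM in controls and from 2738 to 4269 CPM in PM2.5. Of the 5 tested, 3 were called higher, where 0.190% of all genes were. Hba-a3 (-0.14 ± 0.40) and Ahsp (0.27 ± 0.45) overlapped between groups. Of the T and NK cell markers, 3 of 4 tested were lower, with sums from 21.2 to 51.0 CPM in controls and from 7.71 to 12.4 CPM in PM2.5. Of the 4, 1 was called lower, Gzmb, the protease granzyme B, where 0.738% of all genes were. Gzmb alone had 11.98, 20.4 and 43.0 CPM in controls and 0.858, 2.42 and 0.967 CPM in PM2.5, most of each control sum. Prf1 was not called but was apart, with 2.05, 1.94 and 2.12 CPM in controls and 1.07, 0.379 and 0.806 CPM in PM2.5. Cd8a and Nkg7 overlapped between groups, and the T cell receptor chain Cd3e had 0.690 to 1.41 CPM in controls and 0.584 to 1.104 CPM in PM2.5. Granulosa sums, 1491 to 7525 CPM in controls and 3171 to 9484 CPM in PM2.5, and luteal sums, 11301 to 24207 and 6962 to 16953 CPM, overlapped between groups. Summed markers of theca and stroma, endothelium, macrophages, oocytes and skeletal muscle overlapped too. Of the 4 tested muscle markers, 1 was called lower, Myl1, where 0.738% of all genes were. Myl1 had 4.18, 5.32 and 14.4 CPM in controls and 0.0954, 0.329 and 0.242 CPM in PM2.5. Acta1, Ckm and Tnnt3 overlapped between groups. Summed markers of oviduct epithelium, mostly Pax8, had 1.19 to 21.6 CPM in controls and 26.04 to 90.2 CPM in PM2.5. Red cells, lymphocytes and granulosa cells all use glycolysis, and their part in these values was not tested.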

How the data were processed

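The authors deposited 1 table with whole-number counts and FPKM values per gene, as its columns are named per the file headers. The submitters' processing notes list cutadapt 1.9, HISAT2 2.2.1 and StringTie 2.1.6, and also DESeq2 and edgeR, with no step assigned to any. No build or strand setting is stated there. Here the deposited counts went into edgeR 4.0.16 under R 4.3.3 (TMM, glmQLFit and glmQLFTest, two-sided), over the 15303 genes averaging 0.5 FPKM or more, with Benjamini-Hochberg adjustment and a threshold of 0.05. An SE is the size of the log2 fold change over the square root of F. FPKM set the filter, the levels between genes, the pair ratios and the limma 3.58.1 fits. Alternatives were DESeq2 1.42.0, other scalings and filters, a blocked fit and 1 library left out at a time. The 35 members, the partner lists, the markers and the pairs were chosen with earlier results of these data known. All members are named. From each partner list the called genes are named, and otherwise the 4 with the smallest unadjusted p. Counts simulated from these libraries were used to check the test. Chi-square per degree of freedom between libraries of 1 group ran from 135 to 337, so none repeats another. The reference tables supplied are for the mouse and were not used here, so no sequence is shown. The values of 1 other hypoxia target are not reported here, though its list's counts include it.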

Additional observations from a re-analysis of the deposited data

How the results depend on the processing

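The count of members changed, 2, and of partner genes changed, 3, were 8 and 12 with DESeq2, which called 1767 genes in place of 142. Without a filter on low values 8 genes changed, and 0 members and 0 partners (9 members and 3604 of all genes at an unadjusted p below 0.05). With edgeR's own filter 87 genes changed, and the 2 members with them. With limma on log2(FPKM + 0.1) 5 partners changed. Leaving out 1 library gave 0 to 7 genes changed, 0 members and 0 partners. In those edgeR fits 6 to 11 members and 1898 to 3493 of all genes had an unadjusted p below 0.05. The gene pairs apart were then 5 to 8, a count that cannot fall when a library is left out. Eno2 and P4ha1 stayed past the threshold with DESeq2, with both limma settings, other scalings, the 1 FPKM minimum, filterByExpr and robust dispersion. The 6 further members called by DESeq2 were Hk2, Egln3, Ndrg1, Slc16a3, Eno1 and Aldoc. The labels do not say that equal replicate numbers share an animal or day, and deviations of same-numbered libraries correlated at -0.30, 0.13 and -0.053, so the numbers were not treated as pairs. With the replicate block 1 gene changed, and 0 members and 0 partners (7 members and 2225 of all genes at an unadjusted p below 0.05).

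Some uncalled values changed sign, most of them near zero but also those of Slc2a3 and Adm. The log2 fold change of Pfkfb3 was -0.0021 with limma on log2(FPKM + 1), -0.040 with 0.1 added and -0.19 with the replicate block, and that of Pfkfb4 was -0.025, -0.037 and -0.037. Car9 had 0.0026 with DESeq2, 0.0024 with median-of-ratios scaling, 0.015 and 0.079 with limma and 0.10 with the replicate block. With a library left out, the range was -0.86 to 0.20 for Adm, -0.18 to 0.29 for Ankrd37, -0.23 to 0.50 for Car9, -0.19 to 0.078 for Egln1, -0.18 to 0.40 for Epas1 and -0.14 to 0.24 for Hif1a. It was -0.12 to 0.45 for Hk1, -0.050 to 0.24 for Pdk1, -0.93 to 0.73 for Pfkfb3, -0.20 to 0.27 for Pfkfb4, -0.15 to 0.26 for Pfkl, -0.27 to 0.021 for Pfkp, -0.58 to 0.16 for Pgam1, -0.49 to 0.14 for Slc16a1 and -0.98 to 2.99 for Slc2a3. Uncalled values of Aldoa, Bnip3, Egln3, G6pc3, Galm, Ldha, Ldhc, Mpc2, Ndrg1, Pdk2, Pfkm, Pgk1, Pkm, Rbx1, Slc2a1 and Vegfa moved by over 1.5 times with a library left out and kept their sign. The causes were not tested. The lowest count of any member was 36, for Egln3 in PM2.5 library 3.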
